A study of Mus musculus with 12 samples.

Results

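The genes described here drive DNA replication and mitosis. They were followed in the mouse TM3 line, derived from testicular Leydig cells, during exposure to methoxyacetic acid (MAA), the active metabolite of the solvent ethylene glycol monomethyl ether. Of 41 genes listed by symbol, 18 of them acting in S phase and 23 in mitosis, 37 were found on the array: 16 S phase genes and 21 mitosis genes. Probe names in the scanner output are transcript accessions, so members were found by matching accessions to RefSeq symbols. Gins1, Gins2, Cenpf and Mki67 matched no probe in this way and were not analysed here. The 37 genes were represented by 48 of the 41174 probes and stood among 15972 genes named through an accession.

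All cells were grown to about 60% confluence in medium with 5% horse serum and 2.5% fetal bovine serum. They were then kept in culture medium alone (control) or in medium with MAA at 1 mM or at 5 mM. RNA was taken after 3, 8 or 24 h, which gave 6 treatments. For every treatment a pair of arrays compared MAA with control RNA of the same time, 1 array in each dye orientation. Each channel held a pool of 3 cultures, and the MAA pools of the pair were independent. The labels do not state whether arrays of one time shared control pools. All values come from one cell line and from bulk RNA, in which fewer cells in a cell cycle phase and less RNA per cell cannot be told apart.

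Cells copy their DNA once per division. The MCM helicase is loaded on origins by Cdc6 and Cdt1, cyclin E and E2F factors open S phase, and ribonucleotide reductase (Rrm1, Rrm2) and thymidylate synthase (Tyms) supply nucleotides. Later, cyclin A and cyclin B with the factor FOXM1 carry cells into mitosis, where Aurora and Polo-like kinases build the spindle, kinesins move it, and checkpoint proteins hold back the anaphase-promoting complex and its activator Cdc20 until every chromosome is attached. Transcripts of the early set are typically made at the start of S phase through E2F sites, and those of the late set in G2 and mitosis through CCAAT boxes and the cell cycle genes homology region (CHR).

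The promoters carried these letters unevenly. RefSeq promoters (build GRCm38.p6) from 250 bases before to 50 after the gene start were searched on both strands for exact E2F-type letters (TTTCCCGC, TTTGGCGC, TTTGCCGC, TTTCGCGC), for CHR-type letters (TTTGAA or else TTCGAA) and for CCAAT. E2F-type letters stood in 6 of 15 promoters of the S phase genes (Cdc6, Cdt1, Mcm3, Mcm5, Mcm6 and Mcm7) and in 0 of 18 promoters of the mitosis genes, against 2.26% of all 32851 promoters. CHR-type letters stood in 13 of 18 mitosis and 2 of 15 S phase promoters, against 19.2% of all, and CCAAT in 16 of 18 and 10 of 15, against 37.4%. These promoters belong to 14 S phase and 17 mitosis genes, and 6 measured genes (Aurkb, Ccna2, Ccne2, Foxm1, Kif20a and Mcm4) have no entry in the table used. A match is a run of letters, not a shown binding site. The 250 bases before the start are given for 5 genes on which the comparisons turn: Cdc6, whose ratio showed the largest rise among the members, Mcm6 and Rrm1, which fell at 24 h, and Cdc20 and Ccnb2, which fell at all 3 times at 5 mM. Capitals mark the motif matches on either strand, and in Mcm6 the first capital run joins a pair of overlapping E2F-type matches.
Cdc6 (chr11:98907901-98908150, plus strand): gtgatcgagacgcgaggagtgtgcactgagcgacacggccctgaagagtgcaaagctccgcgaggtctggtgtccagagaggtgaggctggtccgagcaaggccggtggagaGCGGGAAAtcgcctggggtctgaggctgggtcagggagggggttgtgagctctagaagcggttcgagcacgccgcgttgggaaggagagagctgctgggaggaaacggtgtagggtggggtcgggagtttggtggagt
Mcm6 (chr1:128359706-128359955, minus strand): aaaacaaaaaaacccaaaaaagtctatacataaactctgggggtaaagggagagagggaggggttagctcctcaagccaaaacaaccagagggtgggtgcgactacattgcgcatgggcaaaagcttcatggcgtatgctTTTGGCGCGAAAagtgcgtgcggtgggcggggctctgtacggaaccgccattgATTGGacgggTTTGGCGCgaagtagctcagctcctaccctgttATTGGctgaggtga
Rrm1 (chr7:102441445-102441694, plus strand): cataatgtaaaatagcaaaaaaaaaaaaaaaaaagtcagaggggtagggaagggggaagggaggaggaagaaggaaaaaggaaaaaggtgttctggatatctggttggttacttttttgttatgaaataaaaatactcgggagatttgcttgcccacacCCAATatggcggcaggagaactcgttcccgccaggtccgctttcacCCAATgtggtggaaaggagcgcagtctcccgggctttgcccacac
Cdc20 (chr4:118437344-118437593, minus strand): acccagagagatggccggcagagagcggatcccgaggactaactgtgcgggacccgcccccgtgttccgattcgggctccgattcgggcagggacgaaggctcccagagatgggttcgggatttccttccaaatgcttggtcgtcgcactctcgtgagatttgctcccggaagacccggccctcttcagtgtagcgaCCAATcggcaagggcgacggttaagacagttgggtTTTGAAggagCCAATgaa
Ccnb2 (chr9:70421555-70421804, minus strand): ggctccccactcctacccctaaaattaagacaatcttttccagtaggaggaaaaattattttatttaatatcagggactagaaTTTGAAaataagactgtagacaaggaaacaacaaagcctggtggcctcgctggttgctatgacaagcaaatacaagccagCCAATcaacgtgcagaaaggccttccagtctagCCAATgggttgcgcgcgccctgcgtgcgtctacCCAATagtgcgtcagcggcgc
Cdc6 held a single E2F-type match and neither of the other motifs, Mcm6 held 3 E2F-type matches with 2 CCAAT boxes, and Rrm1 held 2 CCAAT boxes alone. Within these 250 bases Cdc20 and Ccnb2 each held 1 CHR-type match, with 2 and 3 CCAAT boxes, and Ccnb2 held a second CHR-type match after the gene start.

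Every member gave a usable signal. All 37 representative probes (the brightest probe of each gene) were well above background in both channels on all 12 arrays, and 0 had a saturated spot. Over all probes, 61.5% to 70.5% were well above background in the control channel of an array. Among Leydig cell markers, Star, Cyp17a1 and Insl3 were well above background in all 12 control channels and Nr5a1 in 8, whereas Cyp11a1, Hsd3b1 and Lhcgr were so in 0, so the labelled cell type was only partly borne out. The Sertoli cell markers Sox9 and Rhox5 and the germ cell markers Ddx4 and Prm1 were also above background in all 12 by at least 1 probe, although 1 of 3 Sox9 probes was so in 3 and the other two Prm1 probes in 1 and 0. Amh and Fshr were so in 2, Sycp3 in 5, Dazl in 1, and the macrophage markers Ptprc and Adgre1 in 0. The part of other cell types in the results below was not tested. A member is said to have risen or fallen where the limma adjusted p (Benjamini-Hochberg over all probes) of its log2 MAA/control ratio was under 0.05.

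At 5 mM MAA for 24 h, replication and mitosis genes were lower together. Of the 37 members 28 fell and 0 rose, where 15.8% of all probes fell and 14.6% rose. Among probes well above background in both channels on every array, as the members were, 24.5% fell and 20.2% rose. At an unadjusted limma p under 0.05, 1 member was higher. The falls comprised 14 of 16 S phase and 14 of 21 mitosis genes. The lists had median log2 ratios of -0.51 and -0.41, beside 0.03 over all probes and -0.06 over those above background everywhere. All falls but that of Rrm1 were smaller than 2-fold. The study's thresholds (unadjusted p under 0.005 and over 2-fold) were applied here to limma p. The study's own p came from the Rosetta error model. In this way 1 member was called, Rrm1, beside 1.77% of all probes that fell and 3.85% that rose. At 3 h and 8 h these thresholds called 0 members by their brightest probes, although 20 and 18 were lower and 3 and 7 higher at an unadjusted limma p under 0.05. The second, dimmer Cdc6 probe was called at 8 h (2.51-fold higher). Of all probes 1.74% fell and 2.02% rose by these thresholds at 3 h, and 2.49% fell and 3.06% rose at 8 h.

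Rrm1, the large subunit of ribonucleotide reductase, had log2 ratios of -1.20 and -1.31 on its 2 arrays at 24 h. Both arrays lay below every other array of the series for this gene, whose 3 h ratios at 5 mM were -0.01 and -0.28 and whose 8 h ratios were -0.45 and -0.55. The mean of -1.25 ± 0.11 (SE, n = 2 arrays) was a 2.39-fold lower level (limma adjusted p = 0.000157). Its partner Rrm2, the small subunit, read -0.76 and -0.68 at 24 h, a mean of -0.72 ± 0.07 (SE, n = 2; limma adjusted p = 0.000315). Tyms (-0.56 and -0.67) and the sliding clamp Pcna (-0.61 and -0.58) completed the clamp and nucleotide supply genes, of which 4 of 4 fell.

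Transcripts of the MCM helicase subunits fell together. All 6 Mcm2 to Mcm7 genes passed the test, with mean log2 ratios from -0.76 (Mcm4) to -0.42 (Mcm2) and a median of -0.58. Mcm4 had the largest fall, with -0.72 and -0.81 on the arrays and a mean of -0.76 ± 0.08 (SE, n = 2; 1.70-fold lower, limma adjusted p = 0.000325). Mcm6 read -0.56 and -0.77 (1.59-fold lower), and Mcm5 differed most between its arrays among the S phase genes, with -0.73 and -0.29. No array of any of these 6 genes was above 0 at 24 h. At 3 h, 1 of the 6 had fallen (Mcm7), and at 8 h 0 of 6 (limma; 1 at an unadjusted p under 0.05), with means between -0.20 and -0.05. The origin factors Mcm10, Cdc6 and Cdt1 fell by less at 24 h, with means from -0.33 to -0.22, although the second Cdc6 probe had a mean of 0.28. Of the S phase regulators, cyclin E2 (Ccne2) fell, with -0.37 and -0.52, while cyclin E1 (Ccne1; 0.11 and 0.12) and E2f1 (-0.27 and -0.03) did not pass.

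Among mitosis genes at 24 h, Cenpa, the histone H3 variant that marks centromeres, read -0.72 and -1.07, a mean of -0.89 ± 0.13 (SE, n = 2; 1.86-fold lower, limma adjusted p = 0.00184). The mitotic kinesin Kif20a read -0.75 and -0.71, a mean of -0.73 ± 0.08 (SE, n = 2; 1.66-fold lower, limma adjusted p = 0.000367). All 4 cyclin and FOXM1 genes fell (Ccna2, Ccnb1, Ccnb2 and Foxm1; means -0.57 to -0.30). So did 3 of 5 checkpoint genes, 2 of 4 kinases, 2 of 3 centromere genes and 3 of 4 kinesin and midzone genes. The 7 mitosis genes that did not pass had means from -0.18 to 0.10 and included Aurkb (0.04 and -0.34), Nek2 (-0.19 and -0.04) and Top2a (0.15 and 0.05).

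**Figure D1:**
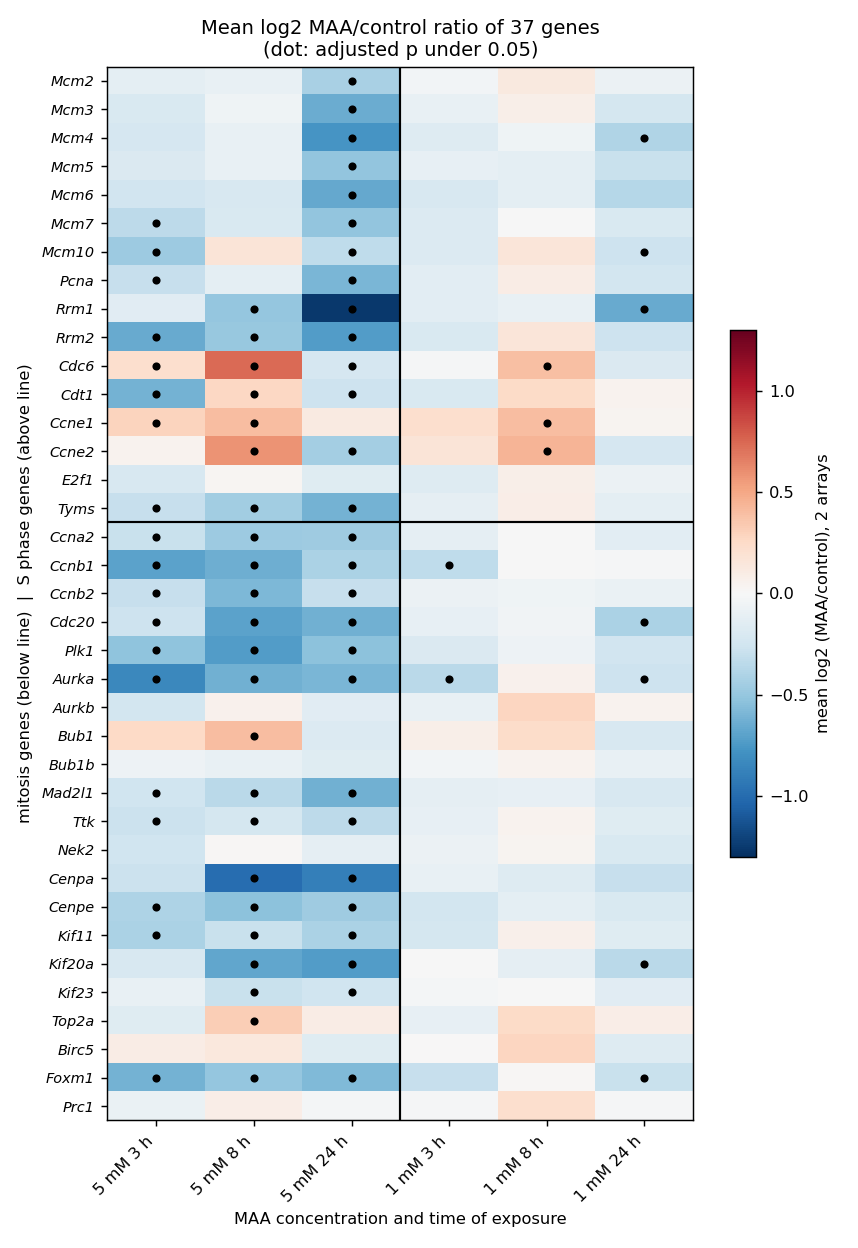
Mean log2 MAA/control ratio (color, mean of 2 arrays) of 37 genes in rows against the 6 treatments in columns; S phase genes stand above the horizontal line, mitosis genes below it, and a dot marks a limma adjusted p under 0.05. At 5 mM the dots run through most mitosis genes at 3, 8 and 24 h and through all 6 Mcm2 to Mcm7 genes only at 24 h, and red cells with dots gather at 8 h.

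At 5 mM MAA for 8 h, the MAA/control ratios of the gene groups moved apart. Of the mitosis genes 14 of 21 fell and 2 rose, whereas of the S phase genes 3 of 16 fell and 4 rose. The background was 15% of probes falling and 15.4% rising. Of probes well above background in both channels on every array 23.6% fell and 23.2% rose. The median log2 ratio was -0.10 for S phase genes and -0.35 for mitosis genes, a gap of 0.25, with gaps of 0.34 and 0.23 on the 2 arrays. No other treatment had a gap of this size: at 5 mM it was 0.06 at 3 h, where the arrays differed in sign (0.09 and -0.07), and -0.10 at 24 h (-0.10 and -0.15), and at 1 mM it was between -0.06 and 0.08. These gaps are descriptions of the lists and were not tested. The control levels that the ratios divide by also changed between 3 h and 8 h, as given below.

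Of the 6 members that rose at 8 h, 4 were S phase genes and 2 were mitosis genes. The share that rose was near that of all probes (15.4%), and among probes well above background on every array, as the members were, 23.2% rose, so the number of rises says nothing particular about either list. Cdc6, which loads the helicase on origins, read 0.71 and 0.76, a mean of 0.74 ± 0.05 (SE, n = 2; 1.67-fold higher, limma adjusted p = 6.77e-05). Ccne2 read 0.54 and 0.62 (mean 0.58 ± 0.07, SE, n = 2; limma adjusted p = 0.000553). Ccne1 read 0.42 and 0.39, and Cdt1, the other loader, 0.32 and 0.21. Both arrays of each of these 4 genes were above 0 at 8 h, and the second Cdc6 probe was higher still, with a mean of 1.33. In the mitosis list, the checkpoint kinase Bub1 (0.56 and 0.24) and the topoisomerase Top2a (0.42 and 0.22) rose. At the same time Rrm1, Rrm2 and Tyms fell, with means from -0.50 to -0.45.

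The mitotic falls at 8 h were led by Cenpa, with -0.83 and -1.16 on the arrays and a mean of -0.99 ± 0.13 (SE, n = 2; 1.99-fold lower, limma adjusted p = 0.00101). Plk1, the Polo-like kinase, read -0.78 and -0.66 (1.65-fold lower), Cdc20 -0.68 and -0.72 (1.62-fold lower), and Kif20a -0.60 and -0.74 (1.59-fold lower). Cyclin B1 (Ccnb1; -0.67 and -0.61) and the Aurora A kinase gene Aurka (-0.67 and -0.58) were close to these. For each of these 6 genes both arrays were below every 1 mM array of the same time. Each also passed the direct test between concentrations on these arrays, which makes this likely, so it is a description and not further support. When the 5 mM replicate 1 array of 8 h was left out, 11 members fell and 3 rose.

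At 5 mM MAA for 3 h, 17 members fell and 2 rose, where 12.3% of probes fell and 11.8% rose. Of probes well above background in both channels on every array 19.5% fell and 18.4% rose. The falls were in 11 of 21 mitosis and 6 of 16 S phase genes, with medians of -0.27 and -0.21. All probes had a median of -0.10, and probes well above background in both channels on every array, as the members were, had a median of -0.01. Aurka fell most, with -0.89 and -0.78 on the arrays and a mean of -0.84 ± 0.06 (SE, n = 2; 1.79-fold lower, limma adjusted p = 0.000103). Ccnb1 followed with -0.77 and -0.61 (1.61-fold lower), then Rrm2 with -0.67 and -0.64 (1.58-fold lower). Cdt1 (-0.53 and -0.70), Foxm1 (-0.51 and -0.71) and Plk1 (-0.64 and -0.40) were 1.43-fold to 1.53-fold lower. Both arrays were below 0 for each of these 6 genes and above 0 for Ccne1 (0.30 and 0.28) and Cdc6 (0.24 and 0.19), which rose. With each array centred on the median of all probes 6 members fell and 1 rose, with each array centred on the probes above background everywhere 16 fell and 2 rose, and without either 3 h array 8 fell and 1 rose. With the dye as a covariate 26 fell.

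**Figure D2:**
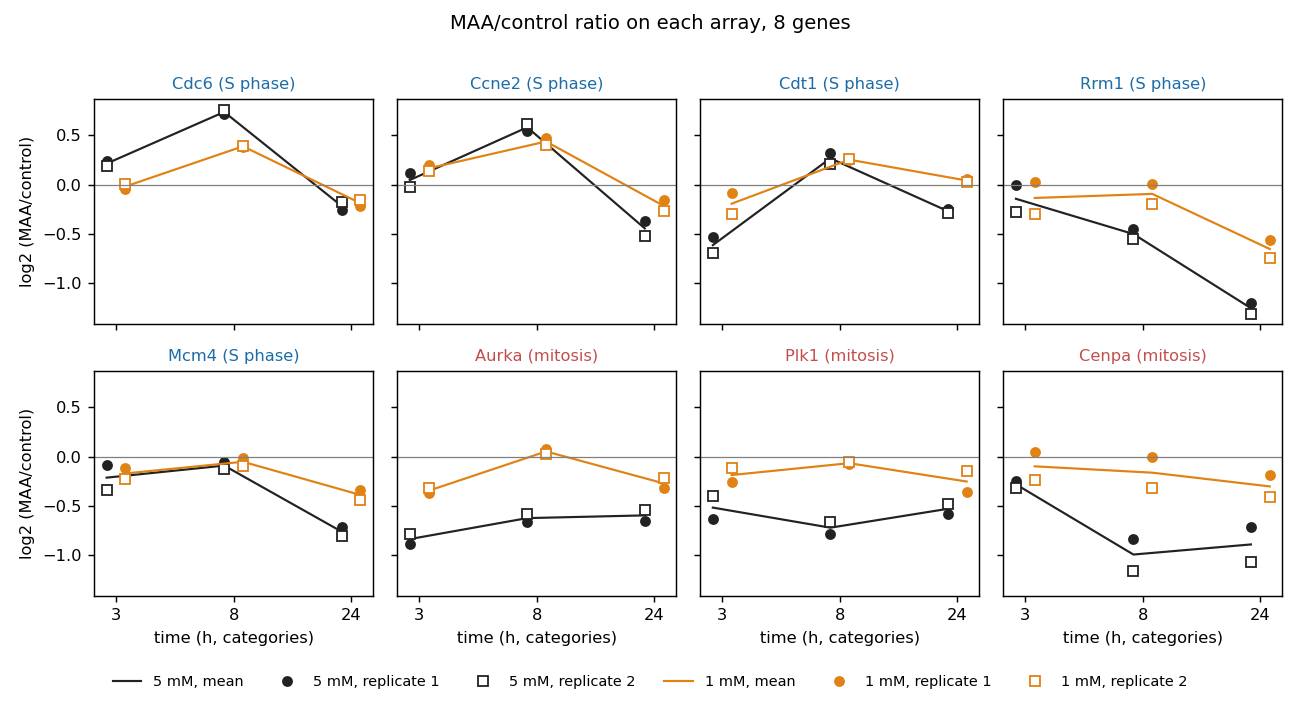
Log2 MAA/control ratio on the vertical axis against time in h as categories for 8 genes, with 5 mM in black and 1 mM in orange; circles are replicate 1 arrays, squares replicate 2 arrays, and lines join the means. Cdc6, Ccne2 and Cdt1 peak at 8 h, Rrm1 descends to -1.20 and -1.31 at 24 h, and Aurka and Plk1 stay below 0 at every time at 5 mM.

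Over the 3 times at 5 mM, 13 members fell each time: Rrm2 and Tyms of the S phase genes, and Ccna2, Ccnb1, Ccnb2, Cdc20, Plk1, Aurka, Mad2l1, Ttk, Cenpe, Kif11 and Foxm1 of the mitosis genes. A further 3, Cdc6, Cdt1 and Ccne2, rose at 8 h and fell at 24 h by their brightest probes. The second, dimmer Cdc6 probe also rose at 8 h but was above 0 on both 24 h arrays (0.41 and 0.15) and did not pass there. The shares of all probes with these patterns over the times were not counted, so the counts describe the members alone. Tested directly, 9 members were lower at 24 h than at 8 h, all of them S phase genes, and 0 were higher (1 at an unadjusted limma p under 0.05), where 4.32% of probes were lower and 4.6% higher. Ccne2 differed by -1.03 ± 0.10 (SE; limma adjusted p = 0.00201) and Cdc6 by -0.95 ± 0.08 (SE; limma adjusted p = 0.00139). From 3 h to 8 h 5 members had a higher ratio (2.8% of probes) and 0 a lower one (2.31% of probes; 3 members at an unadjusted limma p under 0.05). Of these 5, Cdt1 went from -0.61 to 0.27, a difference of 0.88 ± 0.10 (SE; limma adjusted p = 0.00763), and Mcm10, an origin firing factor, from -0.48 to 0.16 (limma adjusted p = 0.00802). Ccne2, Cdc6 and Top2a were the others. From 3 h to 24 h 6 members were lower (7.42% of probes) and 0 higher (8.39% of probes; 4 members at an unadjusted limma p under 0.05), with Rrm1 at -1.11 ± 0.15 (SE; limma adjusted p = 0.0037).

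A total of 6 members passed in none of the 6 treatments (the share of all probes was not counted): E2f1, Aurkb, Bub1b, Nek2, Birc5 and Prc1. For several of them the arrays of a pair spread widely. Birc5, the survivin gene, read 0.30 and -0.11, 0.34 and -0.07, and 0.03 and -0.34 at 5 mM for 3, 8 and 24 h, and Aurkb, its partner kinase, 0.23 and -0.12 at 8 h, so that in both genes replicate 1 was above replicate 2. Bub1b and Prc1 instead had tight pairs near 0, with 5 mM means from -0.15 to -0.06 and from -0.09 to 0.09. A second, dimmer E2f1 probe fell at 5 mM at 3 h and 24 h (mean -0.31 at both), which the brighter probe did not. Other second probes also gave differing calls: those of Cenpe and Top2a passed in no treatment, that of Kif11 missed at 8 h (-0.04), 1 of the other 2 of Ccnb1 did not pass at 1 mM for 3 h (-0.20), and that of Cdc6 did not pass at 24 h (0.28).

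At 1 mM MAA fewer members passed. Of probes well above background in both channels on every array 3.06% fell and 4.24% rose at 3 h. At 8 h 3.32% of them fell and 5.02% rose, and at 24 h 7.01% fell and 9.21% rose. At 3 h Aurka (-0.37 and -0.32) and Ccnb1 (-0.37 and -0.28) fell, beside 1.91% of probes falling, and 0 members rose, beside 2.71% (2 at an unadjusted limma p under 0.05). At 8 h Ccne2 (0.47 and 0.40), Ccne1 (0.42 and 0.39) and Cdc6 (0.38 and 0.39) rose, beside 3.4%, and 0 fell, beside 2.13% (0 also at an unadjusted limma p under 0.05). At 24 h 7 members fell (4.66% of probes) and 0 rose (6.66% of probes; 0 also at an unadjusted limma p under 0.05). The falls were in Rrm1 (-0.56 and -0.75), Cdc20 (-0.50 and -0.33), Mcm4 (-0.34 and -0.44), Kif20a (-0.35 on both), Foxm1 (-0.27 and -0.32), Aurka (-0.32 and -0.22) and Mcm10 (-0.30 and -0.24). All of these lay below 0 on both arrays. Rrm1 had the largest change of them, a mean of -0.65 ± 0.11 (SE, n = 2, 1.57-fold lower, limma adjusted p = 0.0104). It was again the single member called by the study's 1 mM thresholds (here unadjusted limma p under 0.005 and over 1.5-fold). By them 1.41% of probes fell and 3.26% rose. At 3 h and 8 h these thresholds called 0 members by their brightest probes, where 8 and 0 were lower and 2 and 7 higher at an unadjusted limma p under 0.05. The second Cdc6 probe was called at 8 h (1.83-fold higher). By these thresholds 0.627% of probes fell and 1.32% rose at 3 h, and 0.656% fell and 1.72% rose at 8 h. Between 8 h and 24 h at 1 mM the ratios of Ccne2 (-0.65) and Cdc6 (-0.58) dropped past the test, beside 0.197% of probes lower and 0.379% higher. Each of the counts of falls and rises at 1 mM went to 0 when either array of its treatment was left out. The count of falls at 3 h also went to 0 without any 1 mM array of 8 h or 24 h and to 1 without any 5 mM array of 8 h or 24 h, and that of 24 h to 4 without either 5 mM array of 24 h. With the arrays centred on the median of all probes 0, 1 and 1 members passed at 3, 8 and 24 h. Other settings raised the 1 mM counts: with the deposited ratios or without dim probes 4 fell at 3 h, 6 rose at 8 h and 12 fell at 24 h, with the slide as a covariate 4, 5 and 15, and with the dye, which goes with the replicate number, as a covariate 5, 6 and 20.

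The concentrations were compared directly at each time. At 8 h 11 members were lower at 5 mM than at 1 mM (5.27% of probes) and 1, Cdc6, was higher (4.84% of probes). Of the 11, 9 were mitosis genes: Ccna2, Ccnb1, Ccnb2, Cdc20, Plk1, Aurka, Cenpa, Kif20a and Foxm1. Aurka showed the smallest adjusted p, with -0.62 at 5 mM and 0.05 at 1 mM, a difference of -0.68 ± 0.09 (SE; limma adjusted p = 0.00518). Cdc6 was at 0.74 against 0.39, a difference of 0.35 ± 0.08 (SE; limma adjusted p = 0.0304). Ccne1 had the same mean of 0.40 at both concentrations. At 3 h 1 member, Aurka, was lower at 5 mM (-0.49 ± 0.09, SE; limma adjusted p = 0.0316), where 1.89% of probes were lower and 1.51% higher. At 24 h 4 were lower: Tyms, Rrm2, Mad2l1 and Ccnb1 (differences -0.49 to -0.40), where 4.37% of probes were lower and 4.04% higher. At an unadjusted limma p under 0.05, 7 members were lower at 3 h and 18 at both 8 h and 24 h. For the other members no difference between concentrations passed, which does not show that they responded alike. Ratios of one time at 1 mM and 5 mM may rest on shared control pools.

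In control cells the same genes were lower at the later time. Between 3 h and 24 h in culture medium alone all 37 members fell in the control channel (limma adjusted p from 0.00702 to 0.029). Of all probes 16.6% fell and 14.9% rose, and of probes well above background in both channels on every array 25.8% fell and 21.3% rose. The control channels of one time and replicate number were averaged to 6 values, 2 per time. The median log2 change was -0.90 for S phase genes and -1.03 for mitosis genes, beside -0.07 over all probes. For all 37 genes both 24 h values lay below both 3 h values, as they did for 32.2% of all probes. Within each of the 3 slides, which held arrays of both times, the members' median change was between -1.05 and -0.99 and 37 of 37 were below 0.

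Nek2, a centrosome kinase, had the largest fall, from log2 signals of 13.25 and 13.06 at 3 h to 11.27 and 11.09 at 24 h, a change of -1.98 ± 0.07 (SE; 3.93-fold lower, limma adjusted p = 0.00702). Mcm10 went from 13.61 and 13.62 to 11.71 and 11.59 (3.90-fold lower). Mcm5 (3.15-fold), Foxm1 (3.11-fold), Bub1b (2.59-fold) and Ccnb1 (2.52-fold) followed. The smallest fall was that of E2f1, from 9.40 and 9.35 to 9.05 and 8.87 (1.33-fold). In every one of these genes the 3 h and 24 h values were clear of each other. When either 3 h or either 24 h value was left out, 1 residual degree of freedom remained and 0 probes of the whole array passed in limma, while 36 or 37 members were lower at an unadjusted p under 0.05 and all 37 stayed below 0 with a median between -1.01 and -0.99.

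The lists parted at 8 h in the control cells too. S phase genes were already lower at 8 h than at 3 h in 9 of 16 cases, with a median of -0.45 and a range from -1.13 to -0.22. At an unadjusted limma p under 0.05 all 16 were lower. Of all probes 6.14% fell and 6.84% rose, and of those well above background in both channels on every array 9.45% fell and 9.49% rose. Of the mitosis genes 0 of 21 passed, with a median of 0.03 and a range from -0.39 to 0.39, and at an unadjusted limma p under 0.05 they counted 2 lower and 5 higher. Ccne2 (-1.13), Mcm10 (-1.03), Cdc6 (-0.91), Ccne1 (-0.84), Mcm5 (-0.57) and E2f1 (-0.54) fell most. From 8 h to 24 h 21 of 21 mitosis genes and 7 of 16 S phase genes fell, where 7.8% of probes fell and 6.2% rose. Ccne2, Cdc6 and Ccne1 were not among them (-0.01, -0.21 and -0.24).

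**Figure D3:**
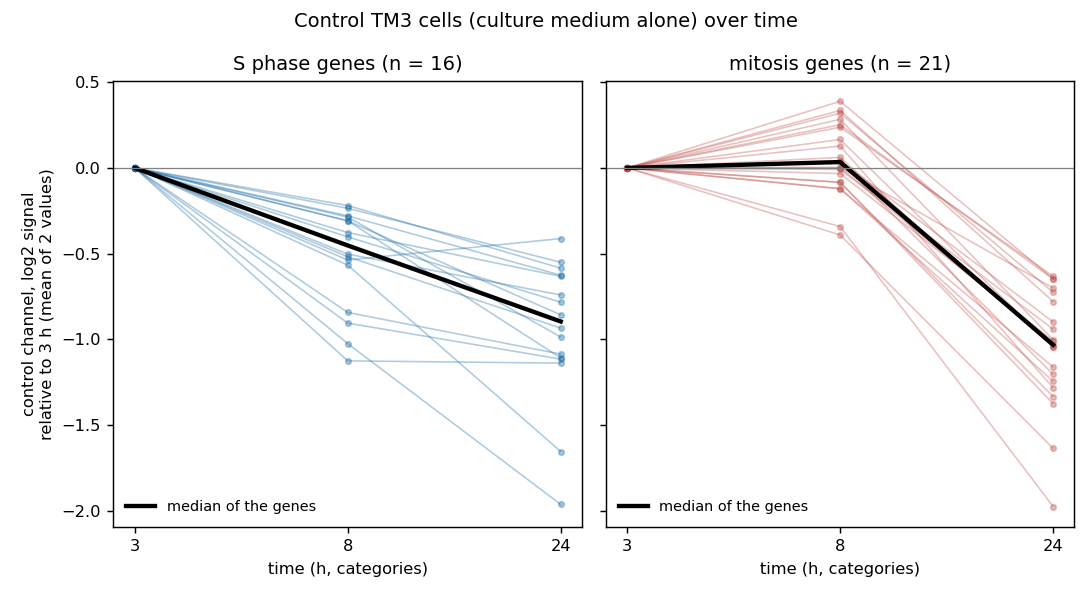
Change of the control channel's log2 signal from 3 h on the vertical axis against time in h as categories, 1 line per gene (mean of 2 averaged values per time) with the median in black; left, 16 S phase genes, right, 21 mitosis genes. The S phase median is at -0.45 by 8 h, the mitosis median stays at 0.03 until 8 h, and both are near -1 at 24 h.

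Each MAA/control ratio divides by these falling control levels, so the channels were also set side by side. Cdc6 fell by 0.91 on the log2 scale from 3 h to 8 h in control cells, by 0.49 at 1 mM and by 0.39 at 5 mM. Ccne2 fell by 1.13 in control cells, 0.84 at 1 mM and 0.60 at 5 mM. Neither was higher at 8 h than at 3 h in any channel, whereas Cdt1 went down by 0.38 in control cells and up by 0.51 at 5 mM. By 24 h Cdc6 was 1.12 below its 3 h level in control cells and 1.57 below it at 5 mM, and Rrm1 0.58 and 1.69 below. Over the lists, the median change from 3 h to 8 h in the 5 mM channel was -0.34 for S phase and -0.05 for mitosis genes. In control cells it was -0.45 and 0.03. From 3 h to 24 h the median change at 5 mM was -1.20 for S phase and -1.18 for mitosis genes, beside -0.90 and -1.03 in control cells. These channel changes are levels on a common scale and were not tested for MAA-treated cells.

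**Figure D4:**
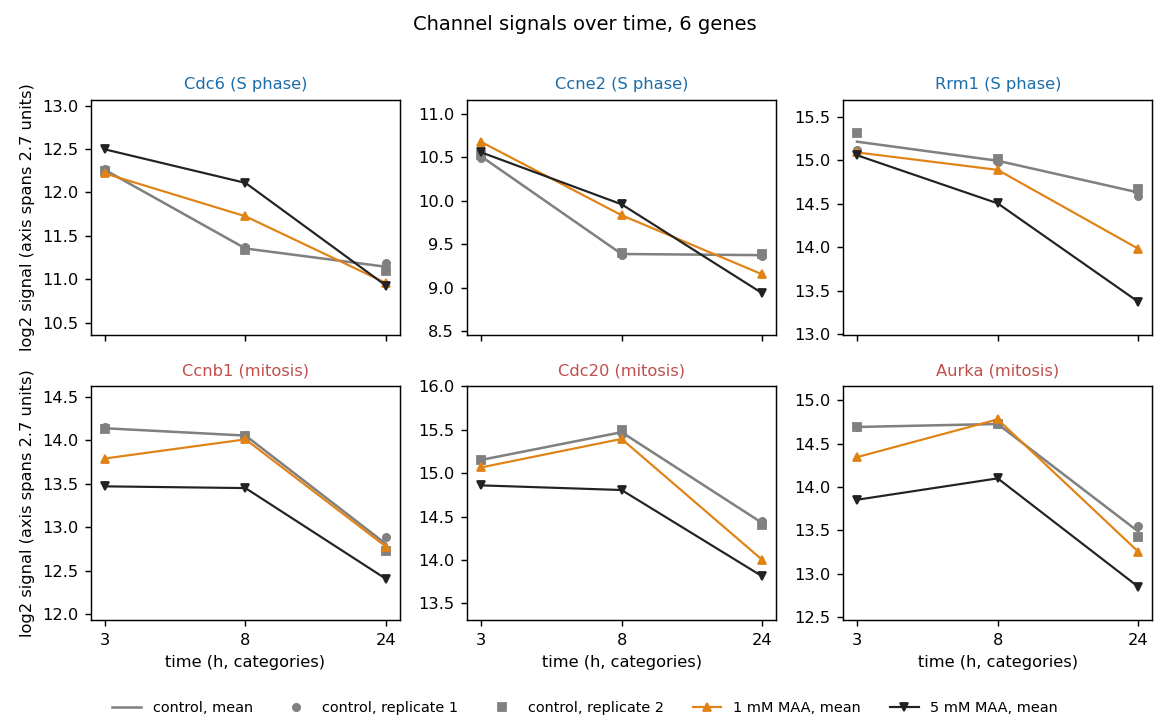
Log2 signal of a channel on the vertical axis (each panel spans the same height) against time in h as categories for 6 genes; grey, control (symbols, averaged values of replicates 1 and 2; line, mean), orange, 1 mM MAA, black, 5 mM MAA (means of 2 arrays). Each gene is shown by its brightest probe. Cdc6 and Ccne2 lie above control at 8 h and below it at 24 h, and Ccnb1, Cdc20 and Aurka at 5 mM lie below control at all 3 times.

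Other genes of the same processes, from wider lists, were counted for context. Of 45 other replication genes found on the array 14 fell and 5 rose at 5 mM for 3 h (median -0.06). At 8 h 25 rose and 6 fell (median 0.34), and at 24 h 23 fell and 2 rose (median -0.25). The S phase members had a median of -0.10 at 8 h, so the sign of the median at that time depended on the genes listed. Of 53 other mitosis genes 28 fell and 0 rose at 3 h, 20 fell and 7 rose at 8 h, and 37 fell and 0 rose at 24 h (median -0.34). At an unadjusted limma p under 0.05, 2 of them were higher at 3 h and 2 at 24 h. Of all probes 12.3% fell and 11.8% rose at 5 mM for 3 h. At 8 h 15% fell and 15.4% rose, and at 24 h 15.8% fell and 14.6% rose. At 24 h Cdc45, a helicase partner (-0.68), the phosphatase Cdc25a (-0.65) and the origin subunit Orc1 (-0.59) had the smallest adjusted p of the replication genes, and Kif4 (-0.65), Aspm (-0.67) and Fbxo5 (-0.58) of the mitosis genes. At 8 h Cdc45 (0.23) and Orc1 (0.49) had risen and Cdc25a had fallen (-0.34). E2f2, chosen here after its value was seen as the 1 gene of these lists called by the study's thresholds at 8 h, had a mean of 1.48 (limma adjusted p = 0.000205). In control cells 40 of 45 other replication genes and 51 of 53 other mitosis genes fell from 3 h to 24 h. Of all probes 16.6% fell and 14.9% rose over that time in control cells.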

How the data were processed

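TM3 cell RNA was measured on 12 Agilent arrays, 2 per treatment. Per the file headers, Feature Extraction 9.5.3.1 was used by the authors to subtract background and normalize the dyes within each array, and the deposited scanner output holds signal intensity values. The deposited table of log10 ratios holds the scanner's own log10 ratios, turned to MAA over control. The other columns hold flags and positions.

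Spots marked as outliers (124 to 208 per array) and control spots were left out, and repeated spots were averaged. Processed signals of MAA over control, as log2 without centring, were fitted with limma 3.58.1 in R 4.3.3, with 1 coefficient per treatment, 6 residual and 1.515 prior degrees of freedom. For channel levels, Aquantile normalization gave the arrays a common scale, and control channels of one time and replicate number were averaged to 6 values and fitted with time and dye (2 residual degrees of freedom). The 2 arrays per treatment limit the precision. Members without a matched accession were left out, and a gene with several probes is given by its brightest.

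The members and lists were chosen with earlier results of these data known. Up to 6 genes per direction and treatment were named, by the size of the mean, and up to 3 of each wider list, by adjusted p at 5 mM and 24 h. Alternatives were normexp (offset 50) with loess, the deposited ratios, centring, a filter on dim probes, keeping outlier spots, replicate number or slide as a covariate, the study's thresholds, quantile normalization of channels, unaveraged control channels, and leaving out each array. The steps were tested on simulated data. A log2 change of 0.5 at 5 mM for 24 h was recovered in 5.5% of 200 changed probes. With 13672 changed probes it was recovered in 54.6%. A control change of 1 was recovered in 0% of 200 and 76.3% of 13723 changed probes. A member that did not pass may therefore still have changed. Figures were drawn with Python and matplotlib.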

Additional observations from a re-analysis of the deposited data

Results flagged for a closer look

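Differences between concentrations or between times were tested directly, and all 37 that passed for a member over 6 contrasts are gathered here as log2 differences with limma adjusted p. In each of the 37 both arrays of the lower condition lay below both arrays of the higher. Passing the test on the same arrays makes this likely, so it is a description and not further support.

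At 5 mM against 1 mM for 3 h, Aurka was lower (-0.49, adjusted p = 0.0316). For 8 h the largest difference was that of Cenpa (-0.83, adjusted p = 0.0337), and Aurka (-0.68), Cdc20 (-0.66), Plk1 (-0.65), Rrm2 (-0.65), Ccnb1 (-0.63), Kif20a (-0.55), Tyms (-0.54), Ccnb2 (-0.52), Foxm1 (-0.51) and Ccna2 (-0.47) were lower as well, with adjusted p from 0.00518 (Aurka) to 0.0424 (Ccnb2). Cdc6 was higher at 8 h (0.35, adjusted p = 0.0304). For 24 h Tyms (-0.49), Rrm2 (-0.45), Mad2l1 (-0.41) and Ccnb1 (-0.40) were lower, with adjusted p from 0.0248 (Tyms) to 0.041 (Rrm2).

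Within 5 mM, the ratio at 8 h exceeded that at 3 h for Cdt1 (0.88), Mcm10 (0.64), Ccne2 (0.54), Cdc6 (0.52) and Top2a (0.48), with adjusted p from 0.00763 (Cdt1) to 0.04997 (Top2a). From 8 h to 24 h the ratio dropped for Ccne2 (-1.03), Cdc6 (-0.95), Rrm1 (-0.75), Mcm4 (-0.67), Mcm3 (-0.59), Cdt1 (-0.54), Mcm10 (-0.49), Pcna (-0.46) and Ccne1 (-0.29), with adjusted p from 0.00139 (Cdc6) to 0.0479 (Ccne1). From 3 h to 24 h it dropped for Rrm1 (-1.11), Mcm4 (-0.55), Kif20a (-0.52), Ccne2 (-0.49), Cdc6 (-0.43) and Mad2l1 (-0.36), with adjusted p from 0.0037 (Rrm1) to 0.0352 (Mad2l1).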

How the results depend on the processing

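Of 156 values recomputed under an alternative that kept all arrays, 121 stayed within 1.5 times the count or within the spread of the 2 arrays. These include S phase minus mitosis gaps, which centring an array or filtering dim probes could not change. The total therefore overstates how stable the results were. None of the calls turned its direction under normexp with loess, the deposited ratios, the centrings, the replicate block or the slide. Centring each array on the median of all probes left 6 falls and 1 rise at 5 mM for 3 h. At 5 mM it left 14 falls and 3 rises at 8 h, and 23 falls and 0 rises at 24 h. At 1 mM it left 0 falls at 3 h, 1 rise at 8 h and 1 fall at 24 h. Centring on probes above background everywhere, chosen after seeing the data, gave 16 falls at 5 mM for 3 h, 7 rises at 8 h, 25 falls and 1 rise (Ccne1) at 24 h, and 6 falls at 1 mM for 24 h, with the other counts unchanged. Normexp with loess gave the same rises at 8 h and 24 h, and 20, 18 and 28 falls at 5 mM and 10 falls at 1 mM for 24 h. The deposited ratios and the filter on dim probes each gave 1 rise at 5 mM for 24 h and, at 1 mM, 4 falls and 1 rise at 3 h, 6 rises at 8 h and 12 falls at 24 h. The slide as a covariate gave 4 falls at 3 h, 5 rises at 8 h and 15 falls at 24 h at 1 mM. By the study's thresholds, applied to limma p, 0 members fell or rose at 5 mM for 3 h and 8 h, and 1 fell at 24 h. At 1 mM 0 fell at 3 h, 0 rose at 8 h and 1 fell at 24 h. The cause of these changes was not tested.

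Replicate numbers coincide with the dyes, and deviations of same-numbered arrays correlated between 0.075 and 0.515 over 15 pairs of treatments (-0.185 to 0.759 over probes well above background everywhere). Since not every pair was over 0.1, the numbers were not taken as pairs of samples, but the values with the block are given because they are also those with the dye as a covariate. With the replicate block 26 members fell at 5 mM for 3 h and 1 rose at 24 h, and at 1 mM 5 fell and 1 rose at 3 h, 6 rose at 8 h and 20 fell at 24 h. In control cells 35 members fell without the replicate block.

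Leaving out each array in turn gave, at 5 mM, 8 to 17 falls and 1 to 2 rises at 3 h and 11 to 17 falls and 3 to 6 rises at 8 h. At 1 mM it gave 0 to 2 falls at 3 h, 0 to 3 rises at 8 h and 0 to 7 falls at 24 h. The S phase minus mitosis gap ran at 5 mM from -0.0744 to 0.0934 at 3 h, 0.23 to 0.34 at 8 h and -0.15 to -0.10 at 24 h, and at 1 mM from -0.0501 to 0.0269 at 3 h and 0.0339 to 0.0919 at 8 h. Leaving out an averaged control value gave 0 to 33 falls between 3 h and 24 h. All members were well above background, and whether signal strength played a part in these changes was not tested.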
